A study of Mus musculus with 6 samples.

Results

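Collagen chain genes encode the alpha chains that wind into the triple helices of the extracellular matrix. The genes were taken as every target on the array whose gene name has the form Col, a type number, a and a chain number. This gave 41 genes with 63 probes, out of 36095 targets and 55681 probes that are not controls. Among them were 11 fibrillar, 6 basement membrane, 9 fibril-associated, 4 transmembrane and 4 beaded filament collagens, and 7 others.

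The study measured RNA from back skin of male C57BL/6 mice aged 6 to 8 weeks, with 3 mice exposed to UVB and 3 control mice kept in the dark. All 6 mice had their backs shaved. From 2 days later, the UVB mice were irradiated under anaesthesia with 180 mJ/cm2, in 3 sessions a week over 2 weeks. Labelled RNA of 3 samples a group went to 1 Agilent array each, in 1 colour. The sources used here do not say how long after the last session skin was taken.

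The helix is built on the repeat Gly-X-Y, so collagen coding sequence holds evenly spaced glycine codons. Fibrillar collagens (types I, II, III, V, XI, XXIV and XXVII) build the banded fibrils that give dermis, bone and cartilage their strength, and dermal fibroblasts are their main source in skin. Type IV chains form the sheet of the basement membrane under the epidermis and around hair follicles, vessels and nerves. Fibril-associated collagens decorate the surface of fibrils, while transmembrane collagens span the plasma membrane and hold their helices outside the cell.

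Values below are scaled intensities, the processed signal of a probe set to 100 at the 75th percentile of its array, and they compare arrays for 1 probe, not 1 probe with another. The 75th percentile signal was 302 to 352 on UVB arrays and 363 to 519 on control arrays, and between 54.9% (UVB 2) and 63.3% (control 2) of spots were above background by the scanner software's mark. A probe so marked is called detected here. Genes detected in 3 or more of the 6 arrays were tested with limma on log2 values, and called where the adjusted p was under 0.05. Differences are log2 UVB minus control with their standard error (SE), n = 3 mice per group.

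All 6 basal keratinocyte markers of skin were detected and tested, and none was called. Of these, 5 had negative estimates (median -0.32), and Lama3, Itgb4 and Krt14 lay wholly below the controls. Among all targets, 22.6% lay wholly below and the median was -0.04. Their summed scaled intensity, mostly Krt5 and Krt14, was 133541 to 150656 in UVB skin and 140565 to 179397 in control skin. Markers of several other cells differed between the groups. Over all targets tested, 5.55% rose and 7.01% fell. Of 13 hair follicle markers tested, 12 rose, with sums of 30795 to 133529 in UVB skin and 566 to 751 in control skin, and UVB 2 had the lowest UVB sum. Of 7 leukocyte markers tested, 5 fell and 1 rose, with sums of 2476 to 3029 in UVB skin and 4185 to 4760 in control skin. Of 6 adipocyte markers tested, 2 rose (Fabp4 by 4.80 ± 0.77, and Lipe) and 1 fell (Cidec, at least 5.04-fold lower in UVB skin), with sums of 709 to 2986 in UVB skin and 286 to 853 in control skin. The UVB sums were mostly Fabp4 and the control sums mostly Plin4. Plin4 lay wholly below the controls in UVB skin and was not called (-1.42 ± 0.45, limma adjusted p 0.0884). Of 5 Schwann cell markers tested, Sox10 rose and Mbp fell. Among 3 endothelial markers tested, Lyve1 fell (at least 2.18-fold lower in UVB skin, where it was not detected). Kdr and Pecam1 had positive estimates and were not called. No skeletal muscle marker (7 tested) or pericyte and smooth muscle marker (3 tested) was called. The part of these cells in the collagen values was not tested, and in whole skin fewer cells of a type cannot be told apart from less RNA per cell.

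A few probes read the repeat itself. A 60-base probe with at least 6 glycine codons in 1 reading frame was found for 3 of the 63 collagen probes (4.76%) and for 238 of the 55618 other probes (0.428%). These are printed 5′ to 3′ from the array files, with the glycine codons in capitals.
Col14a1, chr15:55347733-55347792 (mm9, plus strand): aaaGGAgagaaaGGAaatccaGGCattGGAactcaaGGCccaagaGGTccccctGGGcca
Col15a1, chr4:47283786-47283845 (mm9, plus strand): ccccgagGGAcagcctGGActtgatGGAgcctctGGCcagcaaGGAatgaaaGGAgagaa
Col25a1, chr3:130270497-130270556 (mm9, plus strand): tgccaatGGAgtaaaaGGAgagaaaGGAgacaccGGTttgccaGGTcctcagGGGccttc
The Col14a1 probe carries 7 such codons and each of the others 6. Whether such repeats take up RNA of other collagens was not tested, and the Col14a1 and Col25a1 values from them are given with their classes.

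Of the 41 genes, 30 could be tested and 11 were too dim. Among the 30, 6 rose after UVB (Col2a1, Col1a1, Col1a2, Col3a1, Col5a1 and Col12a1) and 4 fell (Col23a1, Col4a6, Col16a1 and Col17a1), while 20 were not called. Over all 24352 targets tested, 5.55% rose and 7.01% fell. The median difference of the 30 genes was -0.03, against -0.04 for all targets. By class the median was 1.37 for the fibrillar, -0.97 for the basement membrane and -0.48 for the transmembrane genes. It was 0.04 for the fibril-associated genes, and under 0 with median or quantile scaling. No test was made of these class medians.

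The 3 arrays of UVB skin all lay above the 3 of control skin for 7 of the 30 genes and all below for 7. Among all targets, 15.9% lay wholly above and 22.6% wholly below, so that 7 of 30 below is close to the share of the whole array. All 7 genes above were fibrillar (6) or fibril-associated (1). The 7 below were 4 basement membrane, 2 transmembrane and 1 fibril-associated gene. The 10 calls did not hold equally well when 1 array was left out: the number of higher genes then ran between 1 (without UVB 1 or control 1) and 5 (without control 2), with 4 without UVB 2 and 2 without UVB 3 or control 3. The number of lower genes ran between 2 (without control 2) and 4. The same fits called fewer of all targets too, 468 to 957 higher and 391 to 1064 lower, against 1351 and 1707 with all 6 arrays.

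**Figure D1:**
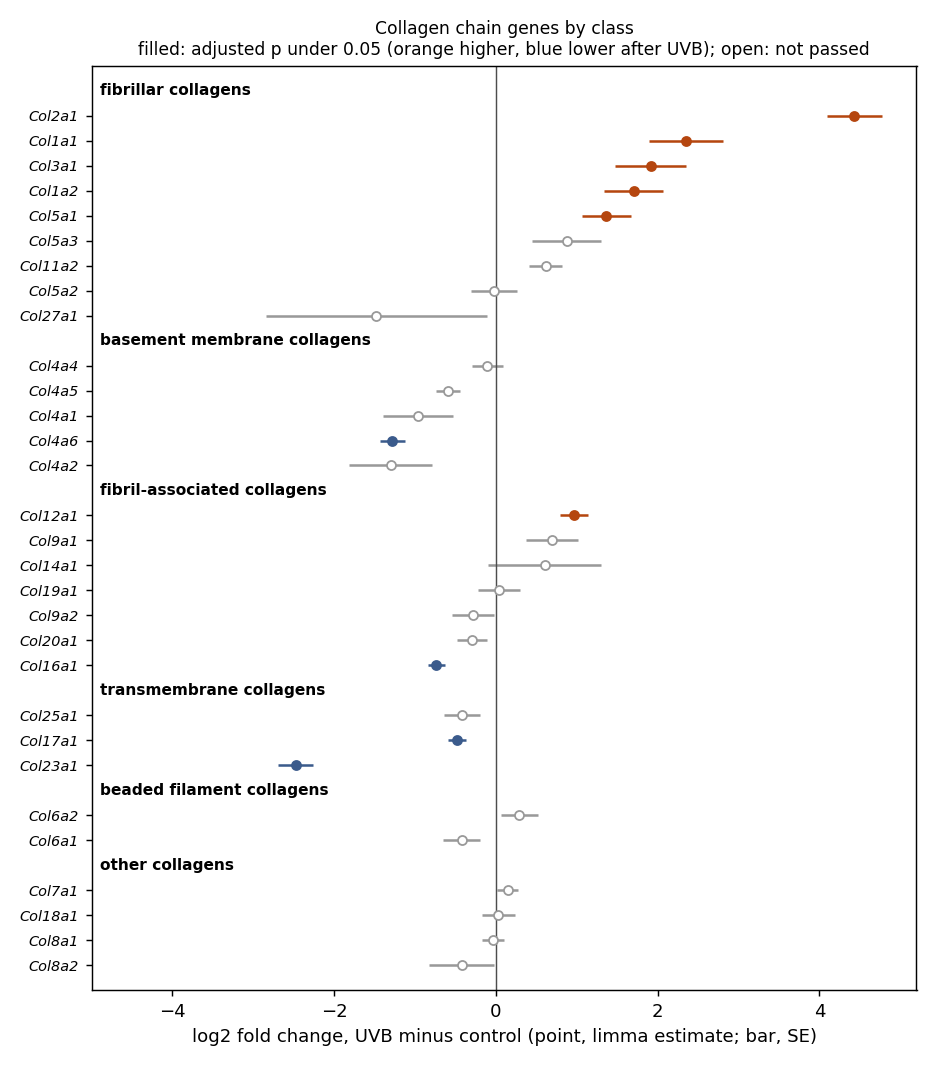
Log2 difference of UVB over control (x axis; point, limma estimate; bar, SE) for the 30 tested collagen genes (y axis), grouped by class. Filled points passed the adjusted threshold: 5 fibrillar genes and Col12a1 stand to the right of 0, and Col4a6, Col16a1, Col17a1 and Col23a1 to the left.

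The main fibrillar genes of the dermis were higher after UVB. Col1a1 and Col1a2 encode the alpha 1 and alpha 2 chains of type I collagen, the most abundant protein of the dermis. Col1a1 (probe at chr11:94813115-94813174, mm9) had scaled intensities of 513, 286 and 346 in UVB skin, against 70.5, 135 and 40.2 in control skin. The groups did not overlap, and control 2 was the highest control. Its difference was 2.35 ± 0.46, with a limma adjusted p of 0.0262. Col1a2 (chr6:4490619-4490678) had 1044, 703 and 739 in UVB skin, against 212, 434 and 171 in control skin. Again UVB 1 was the highest UVB array and control 2 the highest control. The difference was 1.70 ± 0.37, with a limma adjusted p of 0.0337.

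Col3a1 encodes the chain of type III collagen, which forms homotrimers and mixes with type I in dermal fibrils. It had 437, 262 and 251 in UVB skin, against 70.0, 151 and 51.0 in control skin (chr1:45405589-45405648). The order of the 3 controls was that of type I, with control 2 on top. The difference was 1.91 ± 0.43 and the limma adjusted p 0.0386. Col5a1, the alpha 1 chain of type V collagen, is needed to start fibrils and sets their width. It had 24.8, 14.4 and 27.0 in UVB skin, against 6.92, 11.1 and 7.33 in control skin (chr2:27892892-27892951). Here UVB 2 lay nearest to the controls, and the difference was 1.37 ± 0.30 with a limma adjusted p of 0.0359.

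Each of these 4 calls was lost in most of the fits that left out 1 array. Col1a1 passed only without control 2 (limma adjusted p 0.0248) or control 3 (0.0469), and gave 0.0546 to 0.0855 without each of the other four. Col1a2 and Col3a1 passed only without control 2 (0.0221 and 0.0266), with other values of 0.0695 to 0.104 for Col1a2 and 0.0707 to 0.112 for Col3a1. Col5a1 passed only without UVB 2 (0.0303), and gave 0.0612 to 0.110 otherwise. The estimates stayed positive in each of these fits. For Col1a1 they ran between 1.92 and 2.80.

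Col2a1 showed the largest measured difference of the family, though not with normexp background correction, where Col1a1 was larger (2.12). It encodes type II collagen, best known as the main fibril of cartilage. Its probe (chr15:97806071-97806130) gave 37.9, 42.0 and 34.4 in UVB skin, against 1.79, 2.82 and 1.08 in control skin. It was detected in all 3 UVB arrays and in none of the controls, where it was not well above background. The measured difference was 4.43 ± 0.34, with a limma adjusted p of 0.00258. Since the controls give only an upper bound, Col2a1 was at least 12.5-fold higher in UVB skin, taking for each control array the higher of the probe's own value and the lowest detected signal. It passed without each of the 6 arrays. Those fits did not redo the filter, which Col2a1 met only through the UVB arrays, where it was high. With normexp and its added offset of 50 the estimate was 1.81.

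Other genes known best from cartilage were not called with all 6 arrays. Of 6 cartilage and bone markers, Acan and Sox9 could be tested and neither was called. Acan, the large proteoglycan of cartilage, had 9.96, 8.24 and 4.29 in UVB skin, against 10.8, 8.13 and 8.85 in control skin (-0.38 ± 0.32, limma adjusted p 0.466). The summed marker intensity of 215 to 356 in UVB skin and 216 to 367 in control skin is nearly all Sox9, a factor also made in hair follicles. Comp, Matn1, Cnmd and Ibsp were too dim to test. Col9a1 and Col9a2, partners of type II in cartilage fibrils, were not called with all 6 arrays (0.69 ± 0.33 and -0.28 ± 0.26, limma adjusted p 0.201 and 0.505). Without UVB 2 the Col9a1 difference was 1.05, with a limma adjusted p of 0.0437.

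The remaining fibrillar genes were dim and were not called with all 6 arrays. Col11a2, a chain of type XI collagen found inside cartilage fibrils, had 7.46, 4.65 and 6.79 in UVB skin, against 4.30, 3.66 and 4.16 in control skin. The groups did not overlap, but the difference of 0.62 ± 0.20 had a limma adjusted p of 0.0971. It came under 0.05 with normexp (0.0354) and without UVB 2 (0.82, adjusted p 0.0393). Col5a3, a minor chain of type V, had 14.6, 6.26 and 14.2 in UVB skin, against 4.19, 9.20 and 5.50 in control skin (0.87 ± 0.43, limma adjusted p 0.217, and 0.0308 with normexp). As for Col5a1, UVB 2 was the low UVB array and control 2 the high control. Col5a2, the alpha 2 chain of type V, gave -0.03 ± 0.28 (limma adjusted p 0.963), so the 3 tested chains of type V had different estimates; the differences between them were not tested.

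Col27a1 was decided by 1 array. It encodes a fibrillar collagen of cartilage and other tissues, and had 38.0, 1.20 and 0.968 in UVB skin, against 10.8, 9.57 and 9.31 in control skin. UVB 1 was the highest of all 6 arrays and the other 2 UVB arrays were the lowest and not detected. With all arrays the difference was -1.48 ± 1.37 (limma adjusted p 0.504). Without UVB 1 it was -3.19, with a limma adjusted p of 0.00675, but from 2 UVB arrays where the probe was not detected. Col11a1 and Col24a1 were detected in none of the arrays.

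**Figure D2:**
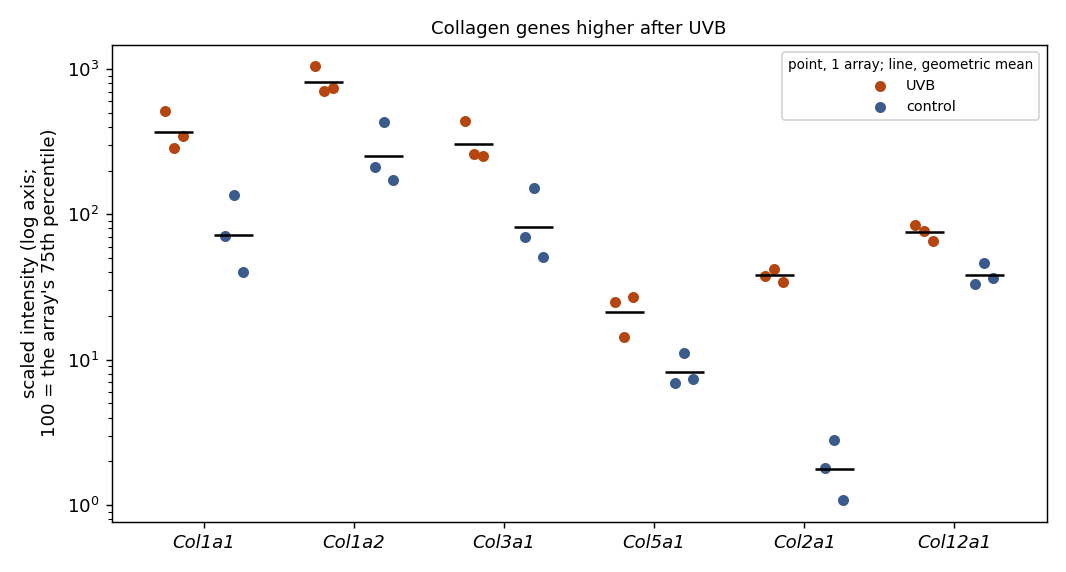
Scaled intensity on a log axis (100 = the array's 75th percentile) of the 6 collagen genes higher after UVB, 1 point per array with the geometric mean as a line. The UVB points of each gene lie above its control points, and control 2 is the highest control in each gene (434 for Col1a2, 2.82 for Col2a1).

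Col1a1 and Col1a2 lie on different chromosomes, yet their products meet in 1 helix. The CCAAT box is a promoter element described for type I collagen genes, and the Col1a2 window from RefSeq (GRCm38.p6), 250 bases before to 50 after the start, holds it on both strands. It is shown because, among the windows of the called genes Col1a2, Col3a1 and Col5a1, only that of Col1a2 holds the motif. The windows of Col16a1 and Col17a1, which fell, hold it too. CCAAT and its reverse complement ATTGG are in capitals.
Col1a2 promoter, chr6:4505368-4505667 (GRCm38.p6, plus strand): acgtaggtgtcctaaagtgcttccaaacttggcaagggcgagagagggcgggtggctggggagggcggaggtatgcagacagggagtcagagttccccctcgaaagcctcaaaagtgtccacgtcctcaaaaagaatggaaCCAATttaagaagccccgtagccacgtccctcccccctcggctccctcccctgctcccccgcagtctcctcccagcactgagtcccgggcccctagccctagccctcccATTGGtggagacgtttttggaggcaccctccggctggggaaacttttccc
On either strand, CCAAT occurred in 13 of 36 collagen windows (36.1%) and in 37.4% of all 32851 windows. TATAAA occurred in 5 (13.9%, against 13.6% of all). GGGCGG, the core of a GC box, occurred in 22 (61.1%, against 35.7% of all), among them Col1a2, Col5a1, Col23a1, Col4a6 and Col16a1, which did not move in 1 direction. The 36 windows belong to 33 of the genes.

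All 5 tested basement membrane genes had negative estimates, but only 1 was called, and Col4a4 turned to 0.13 with normexp. Of all targets tested 7.01% fell. Col4a6 fell after UVB; its alpha 6 chain joins alpha 5 in a type IV network of epidermal basement membrane. It had 119, 113 and 143 in UVB skin, against 288, 280.5 and 343 in control skin (chrX:137599990-137600049). The 2 groups were far apart, with a difference of -1.28 ± 0.15 and a limma adjusted p of 0.00664. It passed without each of the 6 arrays. A second, dimmer Col4a6 probe overlapped between groups (23.7, 14.8 and 25.8 in UVB skin, against 27.7, 21.7 and 28.2 in control skin) and gave -0.30 ± 0.24, with a limma adjusted p of 0.457 over all probes.

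Its partner Col4a5 also lay wholly below the controls but just missed the threshold. It had 93.9, 90.8 and 106 in UVB skin, against 154, 124 and 162 in control skin. The difference was -0.59 ± 0.15 and the limma adjusted p 0.0520. It came under 0.05 with quantile (0.0469) and median scaling (0.0388), and with 4 more of the alternatives tried, among them normexp (0.0278). It passed in none of the 6 fits that left out an array (limma adjusted p up to 0.136). Col4a6 and Col4a5 are neighbours on chromosome X, 1274 bases apart in RefSeq (GRCm38.p6).

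Col4a1 and Col4a2, the chains of the type IV network found in nearly every basement membrane, ran in parallel. Col4a1 had 24.8, 8.90 and 28.0 in UVB skin, against 34.6, 40.4 and 32.9 in control skin (-0.97 ± 0.43, limma adjusted p 0.186). Col4a2 had 15.3, 4.34 and 15.6 in UVB skin, against 21.3, 29.9 and 24.5 in control skin (-1.30 ± 0.51, limma adjusted p 0.140). In both, UVB 2 was the lowest array and control 2 the highest, and the groups did not overlap. Without UVB 2 the estimates were -0.44 for Col4a1 and -0.69 for Col4a2 (limma adjusted p 0.131 and 0.0795). UVB 2 also had the lowest hair follicle sum among the UVB arrays, and the part of that in the pair was not tested.

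This pair starts from 1 stretch of DNA on chromosome 8, where the genes run in opposite directions and overlap by 85 bases in RefSeq (GRCm38.p6). The promoter window of Col4a2 is shown because the 2 genes start close together, with the 78 bases it shares with the Col4a1 window in capitals. RefSeq's window for Col4a1 is set on a start inside that gene's outer end, so this overlap is not measured from the same point as the 85 bases.
Col4a2 promoter, chr8:11312555-11312854 (GRCm38.p6, plus strand): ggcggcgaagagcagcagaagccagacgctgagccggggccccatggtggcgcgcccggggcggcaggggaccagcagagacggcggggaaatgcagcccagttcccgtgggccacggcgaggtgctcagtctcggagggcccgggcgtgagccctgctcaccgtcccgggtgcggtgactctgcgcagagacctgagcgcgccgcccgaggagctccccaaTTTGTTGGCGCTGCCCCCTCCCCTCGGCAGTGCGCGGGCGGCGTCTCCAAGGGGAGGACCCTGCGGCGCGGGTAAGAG
Each of the 2 windows holds CCAAT on either strand and GGGCGG. Col4a3 and Col4a4, the chains of the glomerular network, are a like pair on chromosome 1 that overlaps by 114 bases. Col4a4 gave -0.11 ± 0.19 (limma adjusted p 0.738) and Col4a3 was detected in none of the arrays.

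Of 3 tested transmembrane genes 2 fell, and of all targets tested 7.01% fell. Col23a1 encodes type XXIII collagen, a membrane collagen whose outer part can be shed. It had 26.7, 31.1 and 37.1 in UVB skin, against 135, 184 and 213 in control skin (chr11:51396885-51396944). Each control exceeded the highest UVB array several times over. The difference was -2.48 ± 0.22, with a limma adjusted p of 0.00355, and it passed without each of the 6 arrays.

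All 3 Col23a1 probes fell. The second (chr11:51394105-51394164) had 25.3, 18.3 and 32.2 in UVB skin, against 108, 130.4 and 146 in control skin, a difference of -2.37 ± 0.24. The third had 2.73, 1.96 and 2.24 in UVB skin, where it was not well above background, against 15.8, 15.7 and 15.5 in control skin. By the same bound as for Col2a1 it was at least 4.08-fold lower in UVB skin, with a measured difference of -2.78 ± 0.15. Over all probes, the limma adjusted p was 0.00367, 0.00481 and 0.00127 for the 3 probes. This was the only collagen gene with 3 probes that were all called, though the third probe met the filter only through the control arrays.

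Col17a1 encodes type XVII collagen, the hemidesmosome component that anchors basal keratinocytes to the basement membrane. It had 2918, 3328 and 3144 in UVB skin, against 4381, 4373 and 4340.1 in control skin (chr19:47720894-47720953). The controls were nearly identical and all above the UVB arrays, yet the difference was small (-0.48 ± 0.11, limma adjusted p 0.0406). It passed in none of the 6 fits that left out an array (0.0639 to 0.144). Of the 6 basal keratinocyte markers, 5 also had negative estimates, between -0.60 for Krt15 and -0.27 for Lamb3, and none was called. Their part in the Col17a1 value was not tested. Col25a1, a membrane collagen known from neurons, had 6.99, 4.66 and 4.89 in UVB skin, against 8.96, 6.11 and 6.95 in control skin (-0.42 ± 0.22, limma adjusted p 0.247), read by the glycine-rich probe shown above. Col13a1 was detected in none of the arrays.

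**Figure D3:**
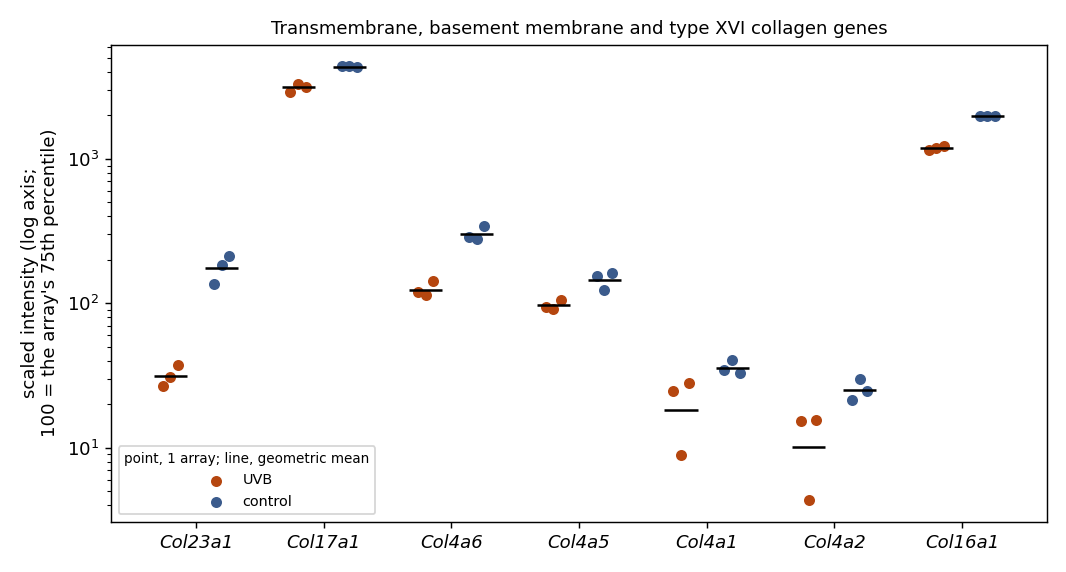
Scaled intensity on a log axis (100 = the array's 75th percentile) of transmembrane, basement membrane and type XVI collagen genes, 1 point per array with the geometric mean as a line. The 7 genes shown are those whose UVB points all lie below the control points, so this gap is how they were picked. Col4a4 and Col25a1, tested genes of the same classes, overlapped between the groups and are not shown. UVB 2 is the low point for Col4a1 (8.90) and Col4a2 (4.34).

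The 7 tested fibril-associated genes were split, with 1 called in each direction. Of all targets tested 5.55% rose and 7.01% fell. Col12a1 encodes type XII collagen, which binds type I fibrils. It had 84.5, 76.4 and 66.1 in UVB skin, against 33.4, 46.6 and 36.7 in control skin (chr9:79446895-79446954). The groups did not overlap, and the difference was 0.97 ± 0.17 with a limma adjusted p of 0.0209. It passed without UVB 3 (0.0316) or control 2 (0.0392), and gave 0.0563 to 0.0733 without each of the other four.

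Col16a1, whose product sits at the dermal-epidermal border zone among fibrils and microfibrils, fell. It had 1146, 1182 and 1237 in UVB skin, against 1979.7, 1971 and 1985 in control skin (chr4:129776333-129776392). Spread within each group was far smaller than the gap, and the difference was -0.74 ± 0.11 with a limma adjusted p of 0.0114. It missed the threshold without UVB 1 (0.0501) and without control 2 (0.0593). Another Col16a1 probe fell alike (112, 106 and 115 in UVB skin, against 177, 165 and 193 in control skin, -0.68 ± 0.12, limma adjusted p 0.0224 over all probes). A dim probe upstream gave -0.23 ± 0.22 and was not called.

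Col14a1, close kin of Col12a1 that also binds type I fibrils, read differently by probe. Its brightest probe (chr15:55352264-55352323) had 7.76, 10.005 and 4.73 in UVB skin, against 5.19, 11.9 and 1.70 in control skin. The values overlapped widely, with 0.60 ± 0.70 and a limma adjusted p of 0.602. The glycine-rich probe shown above had 4.47, 3.15 and 3.29 in UVB skin, against 7.33, 6.24 and 6.52 in control skin. All 3 controls were higher, and the difference was -0.90 ± 0.17, with a limma adjusted p of 0.0278 over all probes, although this probe was detected in only 1 of the 3 UVB arrays. No direction is given for Col14a1. Col20a1 (-0.30 ± 0.18) and Col19a1 (0.04 ± 0.26) were not called, and Col9a3 and Col22a1 were not detected.

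The beaded filament and remaining collagens gave no call. Col6a1, a chain of the type VI microfibrils that surround dermal cells, had 138, 105 and 190.2 in UVB skin, against 170.2, 193 and 203 in control skin (-0.42 ± 0.23, limma adjusted p 0.26). Its partner Col6a2 had 8.89 to 14.8 in UVB skin, against 9.02 to 11.1 in control skin (0.29 ± 0.23, limma adjusted p 0.439). UVB 2 was the lowest of the UVB arrays for both. Col6a4 and Col6a6 were not detected, and no probe of the array is named Col6a3.

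Col7a1 encodes type VII collagen, the anchoring fibril that ties the epidermal basement membrane to the dermis. It had 3271, 2714 and 3074 in UVB skin, against 2883, 2613 and 2688 in control skin, and the groups overlapped. The difference was 0.14 ± 0.12 with a limma adjusted p of 0.477. Col18a1, the source of endostatin, gave 0.03 ± 0.21 at its brightest probe and -0.40 ± 0.24 at another. Col8a2, a short-chain collagen, had 35.5, 40.0 and 99.98 in UVB skin, against 77.9, 74.1 and 59.4 in control skin (-0.42 ± 0.40, limma adjusted p 0.514), so that UVB 3 was both the highest array and apart from the other 2 UVB arrays. Without UVB 3 the difference was -0.89, with a limma adjusted p of 0.0401. Col8a1 (-0.04 ± 0.14) was detected in the 3 controls and in no UVB array. Col10a1 and Col28a1 were not detected, and Col15a1 was in 1 array.

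**Figure D4:**
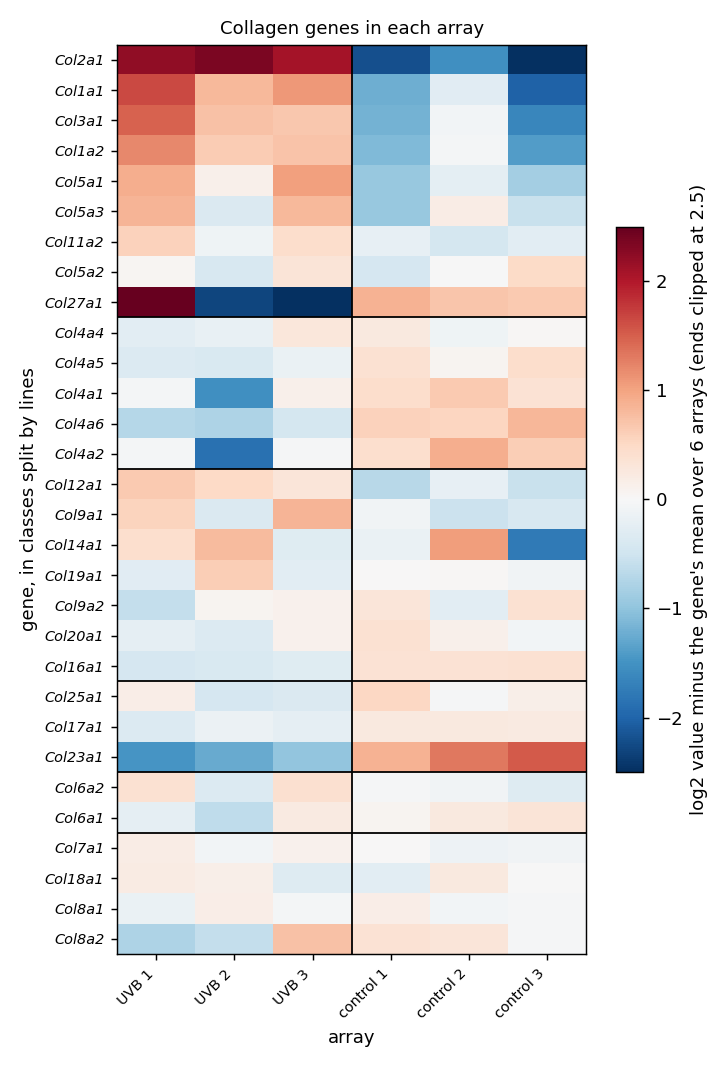
Log2 value of each tested collagen gene (y axis, by class) on each of the 6 arrays (x axis) minus the gene's mean over the arrays, with the colour scale ended at 2.5. Col2a1, Col1a1, Col3a1 and Col1a2 are red on the UVB arrays and blue or pale on the controls, Col23a1 and Col4a6 the reverse, and Col27a1 is red on UVB 1 and blue on UVB 2 and UVB 3.

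Counted by probe, 40 of the 63 could be tested, 6 rose and 8 fell. Over all 33762 probes tested, 5.08% rose and 6.1% fell. For 8 genes there was more than 1 tested probe, and in 5 of them the probes had estimates of 1 sign. The exceptions were Col14a1, Col18a1 and Col8a2, none of which was called. Of the 10 called genes, 7 were read by 1 tested probe.

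**Figure D5:**
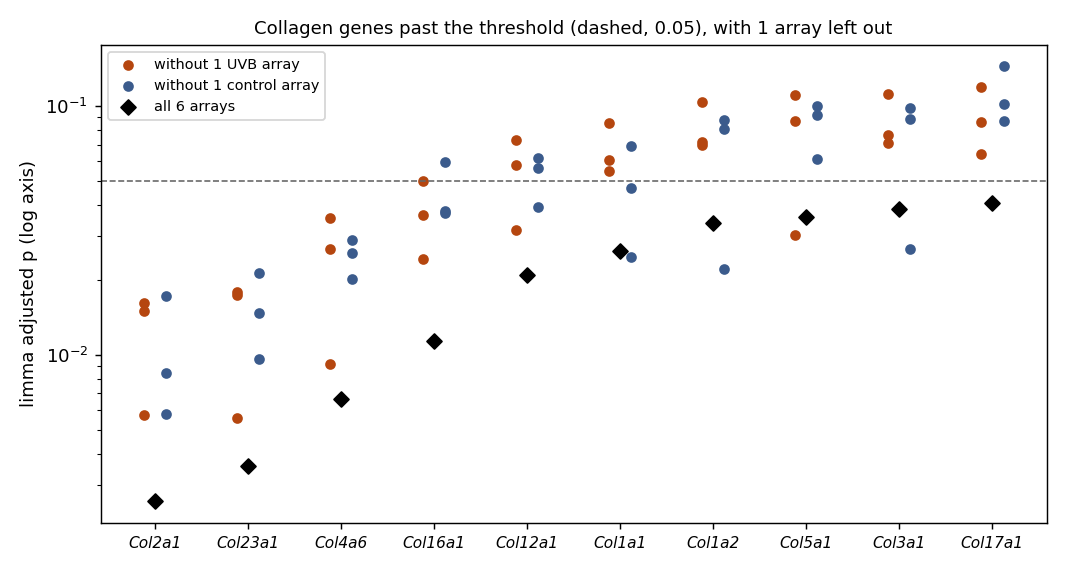
Limma adjusted p (log axis) of the 10 called collagen genes with all 6 arrays (diamonds) and with 1 UVB or 1 control array left out (points), with the threshold of 0.05 dashed. Col2a1, Col23a1 and Col4a6 stay under it in every fit, while Col17a1 lies above it in all 6 fits that leave out an array.

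Of 10 fibroblast markers 6 were tested, 5 had positive estimates (median 0.55), 1 rose and 1 fell. Among all targets 5.55% rose and 7.01% fell, and the median was -0.04. Fbln1, a matrix glycoprotein, had 247, 205 and 188 in UVB skin, against 106.7, 133 and 133 in control skin (0.78 ± 0.16, limma adjusted p 0.0308). Thy1, a surface protein shared by fibroblasts, T cells and nerve, had 774, 943 and 818 in UVB skin, against 3118, 2969 and 3005 in control skin (-1.85 ± 0.12, limma adjusted p 0.00234). The summed marker intensity of 1321 to 1687 in UVB skin and 3364 to 3550 in control skin is mostly Thy1. Lum, a dermal proteoglycan named after its values were seen, had 69.2, 54.2 and 36.0 in UVB skin, against 17.4, 29.8 and 12.1 in control skin (1.47 ± 0.39, limma adjusted p 0.0561), with control 2 the highest control as for type I. Dcn, Dpt and Mfap5 overlapped between the groups and were not called (limma adjusted p 0.337, 0.651 and 0.859). Pdgfra, Pdgfrb, Fbn1 and Lox were too dim to test. The part of fibroblast number in the fibrillar values was not tested.

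Enzymes and chaperones that build collagen changed in both directions. Of 29 listed genes 24 were tested, 3 rose and 4 fell, with a median of 0.06. The share of all targets was 5.55% higher and 7.01% lower, with a median of -0.04. Plod2, which hydroxylates lysines in the ends of fibrillar chains for cross-linking, had 23.1, 24.5 and 33.0 in UVB skin, against 5.12, 4.78 and 2.31 in control skin. The difference was 2.79 ± 0.33, with a limma adjusted p of 0.00693. Fkbp10, a collagen chaperone of the endoplasmic reticulum, had 166, 156 and 162 in UVB skin, against 76.0, 96.6 and 106 in control skin (0.81 ± 0.15, limma adjusted p 0.0241). In both genes every UVB array was above every control.

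Other members of the same machinery fell. Plod3, which hydroxylates and glycosylates lysines in the helix, had 95.6, 95.4 and 80.5 in UVB skin, against 183, 174 and 185 in control skin (-0.9999 ± 0.12, limma adjusted p 0.00755). Crtap, part of the prolyl 3-hydroxylation complex, had 503, 565 and 516 in UVB skin, against 794, 818 and 868 in control skin (-0.65 ± 0.11, limma adjusted p 0.0202). The 2 lysyl hydroxylase genes Plod2 and Plod3 thus had opposite calls.

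Of 11 genes of collagen breakdown 10 were tested, none rose and 2 fell, with a median of -0.30. Among all targets 5.55% rose and 7.01% fell, with a median of -0.04. Mmp9, a gelatinase, had 4.09, 2.18 and 5.11 in UVB skin, against 20.3, 23.7 and 16.0 in control skin (-2.47 ± 0.34, limma adjusted p 0.00992). It was detected in 1 of the 3 UVB arrays. Mmp3, stromelysin 1, had 70.9, 111 and 70.0 in UVB skin, against 402, 430.1 and 158 in control skin (-1.88 ± 0.42, limma adjusted p 0.0375).

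Collagen receptors gave 1 call in each direction among 9 tested of 10, with a median of 0.28. All targets had 5.55% higher and 7.01% lower, with a median of -0.04. Itga11, the integrin subunit by which fibroblasts bind fibrillar collagen, had 76.4, 48.5 and 41.8 in UVB skin, against 15.5, 14.6 and 14.4 in control skin (1.86 ± 0.23, limma adjusted p 0.00793). Itga2, the collagen-binding subunit of keratinocytes and platelets, had 6.63, 5.67 and 4.53 in UVB skin, against 10.9, 15.5 and 10.5 in control skin (-1.12 ± 0.22, limma adjusted p 0.0252). The groups of both genes stood apart.

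All 13 genes of the TGF-beta axis, a known inducer of fibrillar collagen, were tested, and 3 fell while none rose (median -0.35). Of all targets 7.01% fell and 5.55% rose (median -0.04). Tgfbr3, the coreceptor betaglycan, had 106.6, 133 and 114 in UVB skin, against 249.7, 264 and 275 in control skin (-1.16 ± 0.13, limma adjusted p 0.00603).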

How the data were processed

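RNA from back skin of 6 mice was hybridised to 1 array each. Spots were read with Agilent Feature Extraction 10.7.1.1, per the submitters' processing notes and the file headers. The deposited scanner files hold intensity, and the processed signal is already background-subtracted, per the file headers. The deposited table holds log2 values, and since its sorted columns were alike within 0.00212, quantile normalization was inferred from the values. How it was made was not given in the sources used here.

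Here log2 of the processed intensity minus the 75th percentile of each array was analysed. Control spots were dropped, as were the 135 to 274 outlier spots of each array. Repeat spots of a probe were averaged, and saturation occurred in 0 spots. Precision is limited by having 3 arrays a group. The headers give all 6 arrays the same scan time. The brightest tested probe stood for a gene. Limma 3.58.1 in R 4.3.3 fitted UVB against control over all 24352 targets tested, two-sided with Benjamini-Hochberg adjustment, and again over 33762 probes. The procedure was tested on simulated data with independent noise in each gene, so effects shared by genes on an array were not covered. Mice were numbered in the labels, and p-values measure the spread between them. All collagen genes may be named, with array values for those called and for 11 chosen ones. Array values of Col11a2, Col5a3, Col27a1, Col4a5, Col25a1 and Col8a2 are given too, outside this rule. Of other lists the 2 called genes of smallest p in each direction are named. For 1 of these the result is not reported here. The members and lists were chosen with earlier results of these data known. Probe positions are those of the array files (mm9). Promoters and neighbouring genes are from RefSeq (GRCm38.p6). Alternatives covered scaling, background correction, filter, probe choice, variance model, replicate number and left-out arrays.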

Additional observations from a re-analysis of the deposited data

How the results depend on the processing

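Over 15 alternatives none of the 10 called genes changed direction, and 3 of them (Col2a1, Col23a1 and Col4a6) passed wherever they were tested. Col2a1 was not tested with the filter that asks for all 6 arrays, and it met the main filter only through the UVB arrays. The median of all targets was -0.04, moved to -0.14 with median scaling, 0.08 with normexp and 0.10 without a filter. Same-numbered UVB and control mice did not deviate together (r of -0.11, -0.26 and -0.08). Differently numbered mice were not compared, so these values cannot show whether the numbers mark pairs or a batch. A replicate block left 1 gene higher and 2 lower, and 7 of 10 calls were not made with it, while it called 472 higher and 301 lower among all targets, against 1351 and 1707. With normexp 8 genes were higher and 5 lower, and 2548 and 2489 among all targets. Without a filter on dim probes 3 genes were higher, and more targets were tested. With 1 array left out, 1 to 5 genes were higher and 2 to 4 lower, and 1 to 5 probes were higher and 4 to 7 lower, each from fewer arrays.

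Class medians moved as follows, and the cause was not tested. The fibrillar median was 0.86 with normexp and 0.87 without a filter, and that of beaded filaments ran between -0.24 and 0.16 with 1 array left out. The basement membrane median was -0.44 with normexp and -1.27 to -0.55 with 1 array left out. The fibril-associated median was 0.30 with normexp, 0.54 without a filter, -0.29 with the all-array filter, -0.15 with the mean of probes and -0.20 to 0.19 with 1 array left out. The transmembrane median was -1.48 with the all-array filter, which leaves fewer genes, and -0.60 to -0.48 with 1 array left out. The median of the other collagens was -0.11 with median scaling, 0.0472 with normexp, 0.14 without a filter, -0.0880 with the mean of probes and -0.0841 to 0.0544 with 1 array left out.

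Sign changed only in 9 genes that were not called. With normexp this gave 0.19 for Col25a1, 0.14 for Col9a2, -0.00998 for Col18a1, 0.29 for Col5a2, 0.21 for Col27a1, 0.33 for Col8a1 and 0.13 for Col4a4. With the mean of probes it gave -0.15 for Col14a1 and -0.18 for Col18a1. With median scaling it gave -0.0664 for Col19a1 and -0.0737 for Col18a1, and Col19a1 was -0.0747 with quantile scaling and -0.0719 with the deposited table. With 1 array left out, the range was -0.14 to 1.27 for Col14a1, -0.26 to 0.19 for Col19a1, -0.10 to 0.20 for Col18a1, -0.24 to 0.20 for Col5a2 and -0.13 to 0.0332 for Col8a1. Dim signals limit the 11 genes not tested.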

Other observations

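A few probes described as collagens carry no collagen gene name in the array files and so stood outside the family above. A probe described as collagen VI alpha 3, a chain of the same microfibrils as Col6a1, had scaled intensities of 43.4, 20.4 and 45.2 in UVB skin, against 10.6, 16.8 and 14.9 in control skin. The groups did not overlap, but the difference of 1.30 ± 0.35 had a limma adjusted p of 0.0623 over all probes. UVB 2 was again the lowest UVB array, as for Col6a1 and Col6a2. A probe described as collagen XXII alpha 1, a chain known from tissue junctions, had 4.24, 7.82 and 11.7 in UVB skin, against 5.22, 5.08 and 2.75 in control skin (0.81 ± 0.43, limma adjusted p 0.257). The others, among them the probes of genes now named Col6a5 and Col26a1, were detected in none of the arrays.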
